A study of Nasonia vitripennis with 79 samples.

Results

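Heads of diploid females were compared with heads of diploid males of the jewel wasp Nasonia vitripennis, in late generations of the WOM polyploid line. The members were the 10 libraries of 79 in the series whose labels gave a head, 2 chromosome sets and generation F14 (females, 5 libraries, D91 to D95) or F15 (males, 5 libraries, D111 to D115). Unfertilised eggs of this wasp normally give haploid males and fertilised eggs give diploid females. The WOM line also holds diploid males and triploid females, after knockdown of a sex determination gene that was not analysed here, and both groups come from that line. All wasps were taken 1 day after emergence, and poly(A) RNA was sequenced in bulk. Both groups carried the same number of chromosome sets, which haploid males and diploid females do not. The males were 1 generation later than the females, so sex and generation cannot be told apart in this comparison. Nothing in the labels tells whether libraries of a group are separate cultures or pools of animals. The p-values below therefore rest on the spread from library to library alone, and this spread may be technical.

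In insects a cascade of sex-specific splicing carries the sex signal. In Nasonia, transformer (Tra) directs female splicing of doublesex (Dsx), which encodes a transcription factor that shapes sexual characters, and fruitless (Fru) encodes another factor of the cascade, known in Drosophila for its role in the male nervous system. Heads hold brain, eyes and, where they stay attached, antennae with their odorant receptors, along with fat body, glands and cuticle-forming epidermis. Among the enzymes made in these tissues are cytochrome P450s, which oxidise hormones, odorants, cuticle lipids and foreign compounds.

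The deposited counts summed to 16.2 M to 45.8 M in the female libraries and 14.27 M to 44.98 M in the male libraries, with D93 and D113 the deepest. Head markers were high in both: the opsin Lop1 was at 5351 ± 1881 CPM (counts scaled by TMM and library size, mean ± SD, n = 5 as for every group below) in females and 5415 ± 2303 in males, and the synaptic gene Syt1 at 760 ± 130 and 822 ± 143. The germ plasm gene oskar, an ovary marker, was at 5.55 ± 2.28 and 5.58 ± 0.86 CPM. Library profiles correlated at r = 0.975 to 0.989 within a sex and 0.949 to 0.965 between sexes across genes, and the first principal component, with 48.3% of the variance, separated the sexes. In females 3.64 to 4.91% of counts, and in males 5.53 to 6.93%, fell on the top 10 genes of the library.

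Of 11579 genes tested, 1051 (9.08%) differed between the sexes at an adjusted p under 0.05, of which 358 (3.09%) were higher in females and 693 (5.98%) higher in males. At least 2-fold were 185 of the female-higher and 425 of the male-higher genes, and at least 8-fold 39 and 96. The median size of a called difference was 1.04 on the log2 scale in females and 1.19 in males, while the median over all genes was 0.03. All 5 libraries of one sex lay above all 5 of the other for 294 of the female-higher and 611 of the male-higher genes. Over all genes tested, called or not, such separation was seen for 7.41% in the female and 9% in the male direction. Of the female-higher genes 18, and of the male-higher genes 50, carry a symbol other than a LOC identifier, so most cannot be given a role here.

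The number of calls depended on which other head groups were in the fit. The filter on low counts, the scaling and the spread were all taken anew for each set of groups, and their parts were not tested. With the 2 groups fitted alone 2372 of 10564 genes (22.5%) were called, 1061 (10%) higher in females and 1311 (12.4%) in males, and 333 and 662 of the calls above were among them. On log2(TPM + 1) the split was 493 to 590, or 45.5% female-higher against 34.1%, with the median of all genes at 0.10. Leaving out a library took the female-higher count to 212 without D114 and to 232 without D91.

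All 3 genes of the sex determination list were called higher in female heads, as were 3.09% of all genes tested. Tra was at 444, 371, 349, 504 and 273 CPM in the female libraries D91 to D95 and at 77.3, 68.7, 78.4, 57.0 and 87.5 CPM in the male libraries D111 to D115. The groups did not overlap, and the lowest female library lay well above the highest male one. The log2 fold change, female over male, was 2.39 ± 0.29 (SE, as for every log2 fold change below; adjusted p = 1.98e-07). In bulk heads, fewer cells of a type and less RNA per cell cannot be told apart. Counts are per gene and do not separate the female and male splice forms for which these genes are known.

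Dsx was at 270, 200, 251, 233 and 267 CPM in females and at 141, 134, 162, 159 and 127 CPM in males. The groups again did not overlap, and the difference was smaller, at 0.76 ± 0.18 (adjusted p = 0.00362). Fru was at 182, 111.1, 158, 134 and 102.1 CPM in females and at 75.5, 109.5, 62.2, 109.3 and 44.9 CPM in males. The groups overlapped, since the males D112 and D114 lay above the female D95, and the log2 fold change was 0.78 ± 0.25 (adjusted p = 0.0394). Fru was no longer called when any of D91, D93, D94, D111, D113 or D115 was left out, with adjusted p up to 0.14 over all settings.

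**Figure D1:**
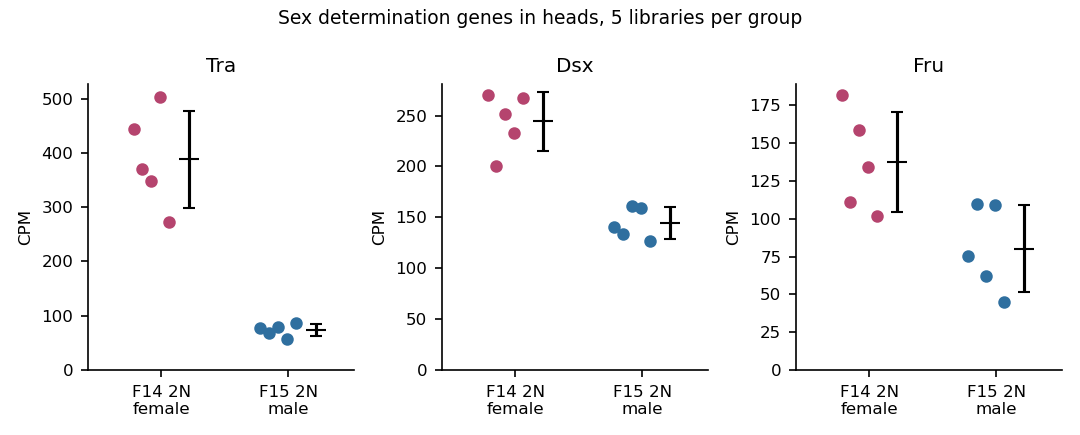
Normalised level (CPM, linear axis from 0) of Tra, Dsx and Fru in the 5 female and 5 male libraries, each point a library, with the mean and SD to the right of the points. Tra and Dsx separate the sexes fully, and the female and male points of Fru overlap between 102.1 and 109.5 CPM.

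The sharpest differences were in genes close to 0 in the heads of 1 sex. Taking genes called and without overlap, at 5 CPM or more on average in the higher sex and under 1 CPM in the lower, 28 were male genes and 14 female genes. The values of this contrast chose them, so these levels are a description. The most abundant was CYP9AG7, a cytochrome P450 gene, at 6325, 8909, 4574, 6053 and 6702 CPM in D111 to D115. In females it had 3 counts in all, from D95, and none in the other 4 libraries. Every male library carried it at a high level. CYP9AG7 counts could be shared with other CYP9AG genes of similar sequence.

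Among the other male genes, LOC100123365 was at 951, 1463, 795, 812 and 1215 CPM in males and at 0.00 to 0.40 CPM in females. LOC100119652 was at 374, 468, 291, 400 and 461 CPM in males and at 0.05 to 0.61 CPM in females. Both were close to even among the males. LOC103315799 was far less even, at 616, 322, 448, 3117 and 6.01 CPM in males against at most 0.56 CPM in females. LOC100118127 had no count in any female head and 13.5 to 23.6 CPM in males, at least 725-fold higher against a floor of 3 counts over the female libraries. The P450 genes CYP6CK8 (56.5 ± 10.6 CPM in males, 0.60 ± 0.70 in females) and CYP6CK11 (16.9 ± 2.51 and 0.03 ± 0.08) also belonged here. LOC100115602, LOC100123371 and LOC100124060 had some of the smallest p-values of the comparison (adjusted p = 1.39e-14, 1.77e-16 and 7.68e-16) at 209, 67.0 and 42.9 CPM in males.

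Female genes of this kind were fewer and lower. The clearest case was LOC100122102, at 3173, 3710, 3527, 2233 and 4290 CPM in females and at 1.55, 0.96, 0.69, 0.62 and 3.59 CPM in males. Its male mean was above 1 CPM, so it is not among the 14, but its log2 fold change of 11.17 ± 0.75 (adjusted p = 1.11e-13) was the largest of any called gene in the female direction. LOC100379126 was at 15, 12.61, 24.5, 7.38 and 31.6 CPM in females and had counts in a single male library, D113 (0.13 CPM). LOC100114526 was at 17.7, 49.7, 34.04, 30.7 and 185 CPM in females and at 0.42 ± 0.25 CPM in males. D95 stood above the other females, and the lowest female library still lay well above the highest male one.

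LOC116416192, LOC100121499 and LOC100114086 were at 8.53, 6.87 and 5.13 CPM in females, and at 0.02, 0.07 and 0.12 CPM in males. By contrast LOC100678462 was well expressed in both sexes, at 243 ± 40.1 CPM in females and 94.9 ± 7.79 in males. Its difference of 1.36 ± 0.17 was among those with the smallest p in the female direction (adjusted p = 2.15e-07). The carboxylesterase gene CCE-A4 was the only 1 of the 14 with a symbol.

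The early heads, F2 diploid females against F3 diploid males, share no library with these. Of the 28 male genes 23 were called higher in F3 males and none in F2 females, where 20.4% of all genes were called male-higher. Of the 14 female genes 9 were called higher in F2 females and 1 in F3 males, against 16.7% female-higher over all genes. CYP9AG7 had no count in F2 females and was at 4911 ± 4090 CPM in F3 males. LOC100118127 had none in F2 females and 8.54 ± 4.87 CPM in F3 males. LOC100122102 was at 3810 ± 1433 CPM in F2 females and 0.82 ± 0.62 in F3 males. Late haploid males, which the study also sampled as heads, had 8047 ± 2665 CPM of CYP9AG7 and 2.08 ± 1.31 CPM of LOC100122102. Late triploid females had 0.01 ± 0.03 CPM of CYP9AG7 and 319 ± 271 CPM of LOC100122102. Means of the 14 female genes in late triploid females ran from 0.03 CPM (LOC100121499) to 30.8 CPM (LOC103317939). Under 1 CPM there, besides LOC100121499, were LOC116416192 (0.35), LOC100677934 (0.42), CCE-A4 (0.49), LOC100114086 (0.81) and LOC100121312 (0.997). These were thus low in late triploid females as well as in males.

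**Figure D2:**
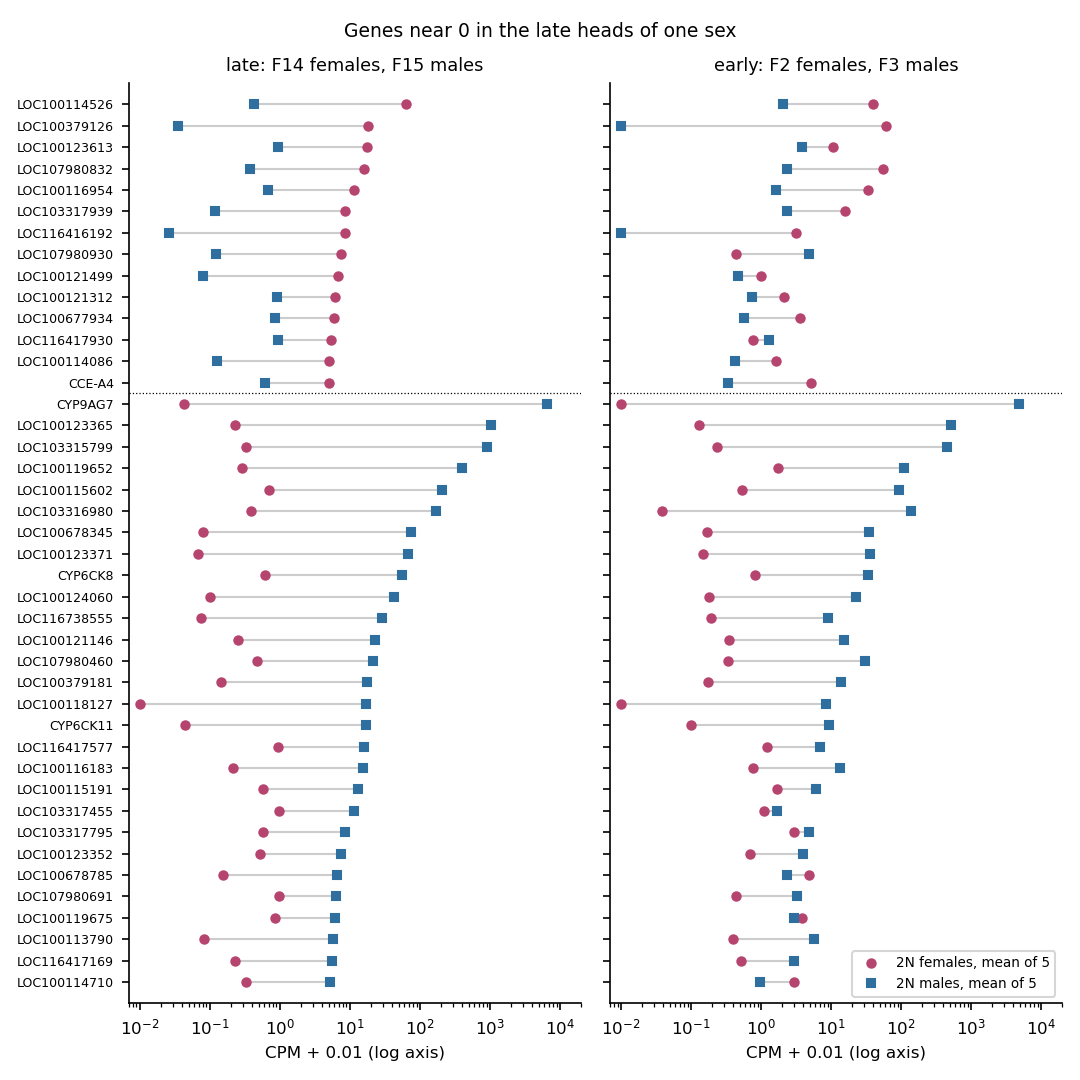
Mean CPM + 0.01 (log axis) of the 42 genes near 0 in 1 sex in late heads, in females (circles) and males (squares), for late heads on the left and early heads on the right. Rows above the dotted line are the 14 female genes and rows below it the 28 male genes, and the order of the sexes is the same on the right for most rows.

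In the 8-group fit no cytochrome P450 gene was called higher in females. Of 43 deposited genes 40 were tested, and 14 were called, all higher in males, where 5.98% of all genes were male-higher. In 11 of the 14 the groups did not overlap, which was also so for 611 of all 693 male-higher calls and, called or not, for 9% of all genes. With the 2 groups fitted alone 15 P450 genes were male-higher and 3 female-higher, where 12.4% and 10% of all genes were. Without the triploid groups it was 14 and 3, where 1113 and 836 of all 11356 genes were. The median over the 40 was −0.37, with 27 negative and 13 positive values, so many members differed little. The median over all genes was 0.03. Summed over the family, females had 1742 to 3466 CPM and males 8742 to 14520. Without CYP9AG7 the male sum was 3842 to 5614 CPM, still above every female library. Without CYP9AG7, CYP4AB14 and CYP6AQ4 the sums overlapped, at 1699 to 3330 CPM in females and 2263 to 3556 in males, so 3 genes carried most of the summed difference.

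CYP4AB14, of the CYP4 clade that includes fatty acid and hydrocarbon oxidases in insects, was at 4.30, 2.95, 6.99, 3.96 and 3.22 CPM in females. In males it was at 936, 1293, 1101, 1058 and 1177 CPM. The difference of −8.0 ± 0.42 had the smallest adjusted p of the comparison, 1.77e-16, together with LOC100119652 and LOC100123371. CYP6AQ4, of the CYP6 family known for oxidising foreign compounds, was at 49.0, 56.1, 71.5, 38.4 and 133 CPM in females and at 643, 1111, 548, 544 and 873 CPM in males. All males lay above the highest female, D95, and the log2 fold change was −3.42 ± 0.36 (adjusted p = 1.27e-08). CYP4AB9 was at 4.12 ± 2.27 CPM in females and 122 ± 27.3 in males (−4.89 ± 0.52).

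The other called members differed less or were scarce. CYP9AG6 was at 3.15 ± 0.71 CPM in females and 15.6 ± 3.35 in males, CYP4AB6 at 12.65 ± 4.40 and 39.9 ± 11.4, CYP6AQ9 at 3.05 ± 1.96 and 11.4 ± 2.74, and CYP4AB8 at 62.4 ± 27.4 and 154 ± 35.1. CYP6BD2 was at 74.6 ± 34.4 and 251 ± 84.9 CPM. Both CYP4AB8 and CYP6BD2 overlapped between the sexes, and their calls were lost in 8 and in 10 of 17 other settings. CYP6CK3 rested on D114, at 15.4 CPM against 0.48 to 2.41 in the other males, and was not called without it. CYP9AG8P and CYP6AS28P, whose symbols end in the P used for pseudogenes, were at 7.26 ± 0.58 and 0.18 ± 0.14 CPM in females and 15.9 ± 4.01 and 1.25 ± 0.32 in males. Reads of near-identical family members, such as the CYP9AG and CYP6CK genes, may be divided among them by the counting, so the values of single members are uncertain to that extent.

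In early heads the same 14 P450 genes did not all show this pattern. Of the 14, 6 were called male-higher there and 2 female-higher, where 20.4% and 16.7% of all genes were. For 7 of the 14 the sex difference itself differed between late and early heads, all toward males, against 11.5% of all genes. The late values chose the 14 and also enter that test, so the 7 are a description. CYP6AQ4 was at 149 ± 42.9 CPM in F2 females and 77.6 ± 29.96 in F3 males, a difference of 0.94 ± 0.34 toward females (adjusted p = 0.026), and the late minus early difference was −4.36 ± 0.49 (adjusted p = 1.32e-07). CYP4AB14 was male-higher in both, but F2 females had 87.2 ± 33.9 CPM, and F3 males 557 ± 196 (late minus early −5.33 ± 0.47, adjusted p = 2.48e-09). CYP4AB9 was at 164 ± 63.2 CPM in F2 females and 199 ± 114.7 in F3 males, without a call (−0.28 ± 0.44, adjusted p = 0.64). Across all 40 P450 genes, 9 were female-higher and 10 male-higher in early heads, where 16.7% and 20.4% of all genes were, with a median of 0.07.

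**Figure D3:**
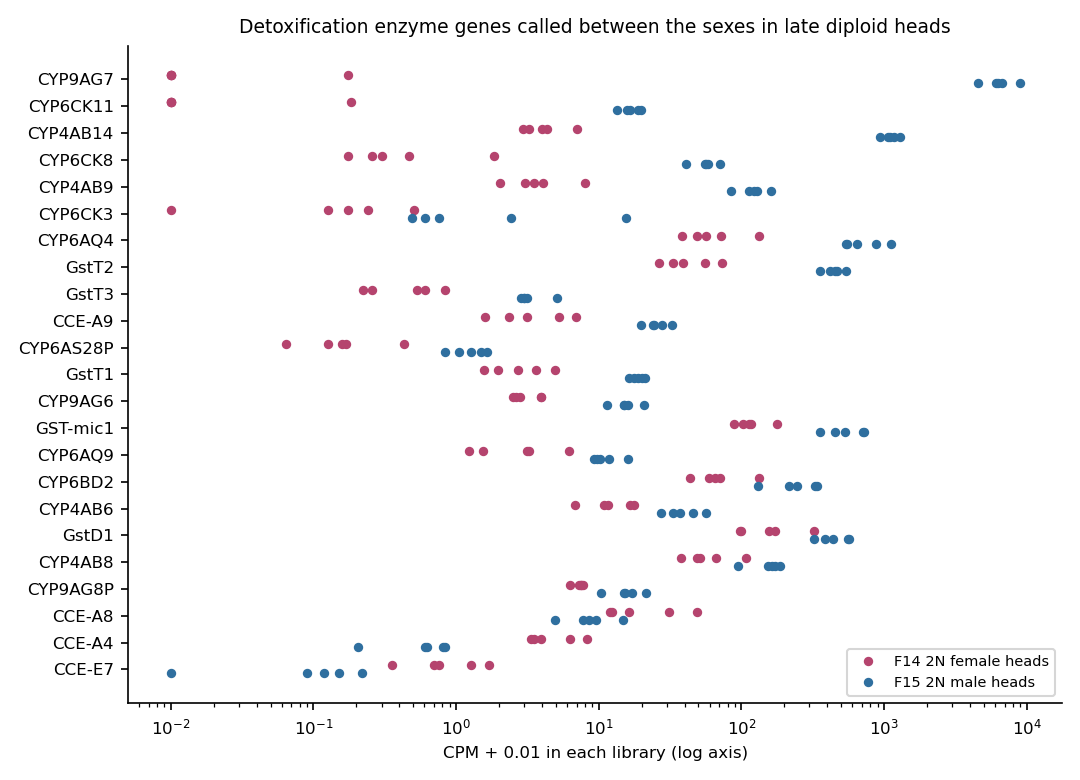
CPM + 0.01 (log axis) of every cytochrome P450, glutathione S-transferase and carboxylesterase gene called between the sexes, each point a library, females in red and males in blue. Genes are those called in the 8-group fit, among which CCE-A8, CCE-A4 and CCE-E7 are higher in females.

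Glutathione S-transferases conjugate glutathione to reactive compounds, and carboxylesterases cleave ester bonds. Of 28 such genes tested 6 were male-higher and 3 female-higher, where 5.98% and 3.09% of all genes were, with a median of −0.10. GST-mic1, a microsomal transferase, was at 102.2, 116.7, 113.9, 88.6 and 178 CPM in females and at 452, 714, 357.9, 534 and 721 CPM in males. The groups did not overlap (−2.21 ± 0.29, adjusted p = 8.48e-07). GstT1, GstT2 and GstT3, theta-class transferases that are neighbours in the RefSeq annotation, were all male-higher. GstT2 was the most abundant, at 45.5 ± 18.8 CPM in females and 447 ± 69.1 in males (−3.29 ± 0.48, adjusted p = 5.62e-06), and GstT1 and GstT3 were at 2.96 ± 1.36 and 0.48 ± 0.26 in females and 18.8 ± 1.93 and 3.41 ± 0.96 in males.

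The delta-class gene GstD1 was at 169 ± 91.1 CPM in females and 456 ± 106.6 in males, with D95 (321) just under the lowest male (324), and lost its call in 3 settings. CCE-A9 was at 3.83 ± 2.19 and 25.6 ± 4.75 CPM (−2.73 ± 0.43, adjusted p = 1.45e-05). In the female direction stood CCE-A4 (5.07 ± 2.16 and 0.61 ± 0.25 CPM), CCE-A8 (24.1 ± 15.99 and 9.13 ± 3.64) and CCE-E7 (0.94 ± 0.53 and 0.11 ± 0.08), the last of which lost its call in 10 of 16 settings. CCE-A8 overlapped between the sexes and was not called without D93, D95 or D115, and CCE-A4 was not called without D113. For GST-mic1, GstT1, GstT2, GstD1, CCE-A8 and CCE-A9 the late and early sex differences themselves differed, as for 24.9% of all genes. The late values chose these genes and also enter that test. GstT2, for example, was at 112.7 ± 24.6 CPM in F2 females and 237 ± 124 in F3 males (late minus early −2.22 ± 0.63, adjusted p = 0.00998).

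Odorant receptor genes had mostly positive fold changes, but varied greatly among libraries. Odorant receptors are the insect ligand-gated channels of the antenna. Of 214 deposited genes 152 passed the filter on low counts, 5 were called female-higher and 2 male-higher, where 3.09% and 5.98% of all genes were called. With the 2 groups fitted alone 69 receptors passed the filter, with a median of 0.67. Of these 3 were female-higher and 4 male-higher, where 10% and 12.4% of all genes were. Of those 152, 133 had a positive and 19 a negative log2 fold change, with a median of 0.90. The filter took in all head groups, so a scarce receptor could pass on its counts in early females alone. The 152 may thus lean toward receptors high in females. Among the 69 the split was 56 positive to 13 negative. With no filter on low counts 174 of the 214 were positive and 36 negative, with a median of 0.86. The receptors summed to 532, 42.9, 36.8, 312 and 533 CPM in D91 to D95, and to 55.7, 124, 206, 355 and 113.6 CPM in D111 to D115. The females D92 and D93 lay below every male library, while D91 and D95 lay above every male library. Of the 214 receptors 198 had counts in D91 and in D95 and 191 in D94, but 99 in D92, and males had 96 to 185. Whether antennae stayed on the heads is not given in the labels, and its part in the result was not tested.

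The receptors called female-higher were mostly scarce and low in the same libraries. Or191 was at 1.16, 0, 0, 0.94 and 1.36 CPM in females and had no count in any male, and Or201, Or99 and Or279 were likewise at 0 in D92 and at 0.02 CPM or less in D93. Or140 alone of the 5 female-higher receptors did not overlap between the sexes, at 7.27, 3.85, 4.27, 5.69 and 5.56 CPM in females and 1.40 to 2.46 CPM in males (1.40 ± 0.42, adjusted p = 0.0267). Without D91 or without D112 none of the 5 was called, and the median over the receptors ran from 0.56 to 1.27 as each library was left out.

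The male-higher receptors were Or93 and Or296. Or93 was at 0.35, 0.26, 0.17, 0.15 and 0.27 CPM in females and at 3.48, 6.02, 4.15, 3.53 and 5.02 CPM in males (−4.20 ± 0.65, adjusted p = 1.36e-05). Or296 was at 1.95 ± 0.88 CPM in females and 10.1 ± 1.02 in males (−2.39 ± 0.50, adjusted p = 0.0012). For both genes every male lay above every female, and Or296 was lowest among females in D92 (1.16) and D93 (0.94). In early heads the receptors summed to 294 to 476 CPM in F2 females and to 44.5 to 214 CPM in F3 males, without overlap. There 27 of the 152 kept by that filter were female-higher and 2 male-higher, where 16.7% and 20.4% of all genes were. The median over the 152 was 1.97 there. Or140 went the other way in early heads, at 2.24 ± 0.61 CPM in F2 females and 8.17 ± 4.61 in F3 males (late minus early 3.26 ± 0.59, adjusted p = 0.00018). Of 14 gustatory receptors tested in late heads, which sense tastants, Gr32 alone was called, where 9.08% of all genes were. It was at 0.02 ± 0.02 CPM in females and 1.21 ± 1.32 in males. Neither of 2 odorant-binding protein genes was called.

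**Figure D4:**
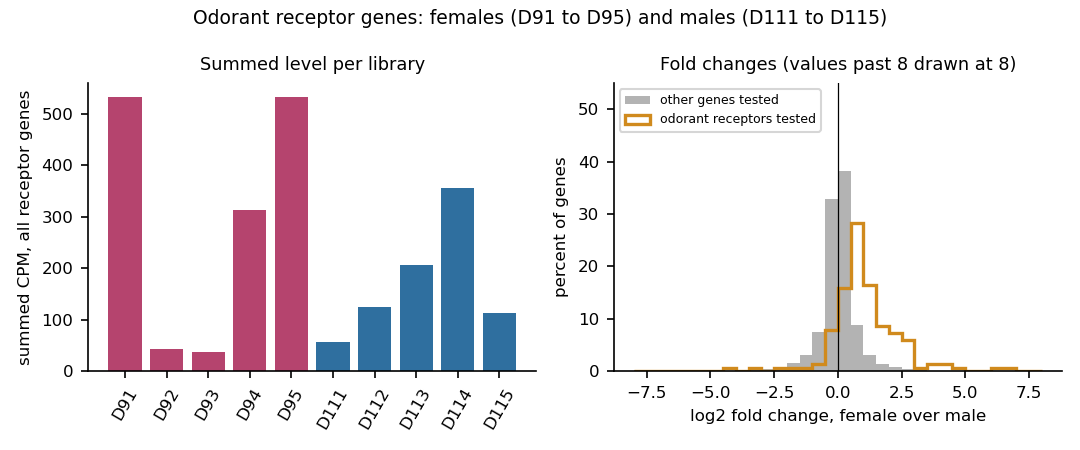
Left, summed CPM of the 214 odorant receptor genes in each library, females in red and males in blue, with D92 and D93 lowest and D91 and D95 highest. Right, percent of the 152 receptors tested (outline) and of all other genes tested (grey) by log2 fold change, female over male, where the receptors have a median of 0.90. The 152 passed the filter on low counts over all head groups, which may favour receptors high in females.

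Cuticle genes, which encode chitin-binding and structural proteins of the exoskeleton, were male-higher in 3 of 30 tested and female-higher in none, with a median of −0.65, where 5.98% and 3.09% of all genes were called. With the 2 groups fitted alone 6 of 26 were male-higher and 2 female-higher, where 12.4% and 10% of all genes were. Without the triploid groups 5 and 2 were, where 1113 and 836 of all 11356 genes were. CPR48 was at 3.14, 5.86, 10.96, 2.67 and 1.42 CPM in females and at 121, 214, 1328, 418 and 196 CPM in males. The male D113 stood far above the others, and every male lay above every female (−6.54 ± 0.88, adjusted p = 1.25e-06). CPR18 and CPR34 were at 2.53 ± 0.77 and 45.4 ± 14.4 CPM in females and 11.6 ± 3.15 and 133 ± 13.5 in males. In early heads CPR48 was at 1236 ± 668 CPM in F2 females and 13470 ± 12720 in F3 males, so it was higher there in both sexes.

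Serine proteases and their homologs, which act in digestion, venom and immune cascades, showed both directions, with 2 of 37 female-higher and 3 male-higher, where 3.09% and 5.98% of all genes were. With the 2 groups fitted alone 4 of 30 were female-higher and 9 male-higher, where 10% and 12.4% of all genes were. SP137 was at 4.11 ± 2.52 CPM in females and 67.8 ± 30.96 in males (−4.06 ± 0.57, adjusted p = 3e-06), and SP110, at 42.7 to 64.9 CPM in females and 79.9 to 86.8 in males, differed less (−0.69 ± 0.14). The third male-higher member, SPH103 (−1.82 ± 0.51), was named after its value was seen. SP7 was at 2.71 ± 1.81 and 0.05 ± 0.07 CPM (5.55 ± 1.3, adjusted p = 0.00488) and SP128 at 10.0 ± 5.32 and 1.91 ± 0.60. SP7 differed from early heads, where it was at 0.12 to 0.60 CPM in F2 females and at 1.47 ± 1.84 CPM in F3 males (late minus early 7.79 ± 1.68, adjusted p = 0.00147).

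The yellow family, which takes in royal jelly-like proteins and pigmentation factors, had 14 members tested. Mrjpl2 was female-higher (1.79 ± 0.82 and 0.31 ± 0.26 CPM) and Mrjpl8 and Y-e were male-higher, where 3.09% and 5.98% of all genes were. Mrjpl2 lost its call without D92, D95, D112, D114 or D115. Mrjpl8 was highest in D113 (23.2 CPM) and was not called without it, and Y-e (9.17 ± 1.52 and 37.1 ± 21.3 CPM) lost its call in 11 of 17 settings. CPR48, Mrjpl8 and Y-e all had their highest male value in D113. Of 8 immune genes 1 was called, where 9.08% of all genes were. It was C1q-VP, at 106.9 ± 21.2 CPM in females and 234 ± 41.4 in males (−1.13 ± 0.22, adjusted p = 0.00036).

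Nuclear genes of the mitochondrial respiratory chain feed electrons to oxygen and serve ATP synthesis. Of 63 tested, 3 were called, all male-higher, where 5.98% of all genes were, and 60 had negative values with a median of −0.32. The count was 18 with the 2 groups fitted alone, where 12.4% of all genes were male-higher. It was 7 on either log2 TPM scale, where 590 (TPM + 1) and 515 (TPM + 0.1) of 11579 genes were. All of these calls were male-higher. SdhB, a subunit of succinate dehydrogenase, was at 77, 91, 101.4, 93.6 and 107.6 CPM in females and at 143, 147, 178, 147 and 186 CPM in males. The groups did not overlap (−0.77 ± 0.18, adjusted p = 0.00358). Ndufb8, of complex I, was at 111.8 ± 16.4 and 168 ± 23.2 CPM, and Cox7a1, of cytochrome oxidase, was at 0.05 ± 0.12 and 0.88 ± 0.21 CPM. Ndufb8 was not called without D91, D94 or D115. On log2(TPM + 1) the median of the list was −0.20, where that of all genes was 0.10. In early heads SdhB went the other way, at 254 ± 51.4 CPM in F2 females and 160 ± 39.6 in F3 males (0.67 ± 0.18, adjusted p = 0.00398), and the late minus early difference was −1.43 ± 0.25 (adjusted p = 0.000136).

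Of 22 neuronal receptor, channel and synapse genes 1 was called, where 9.08% of all genes were. It was the acetylcholine receptor subunit nAChRa12, at 16.6 to 22.6 CPM in females and 26.4 to 35.1 in males (−0.72 ± 0.17, adjusted p = 0.00341). On both log2 TPM scales it was not called. Of 4 neuropeptide and receptor genes, ACP, which encodes a peptide related to adipokinetic hormone, was at 7.68, 11.9, 8.45, 12.8 and 8.94 CPM in females and at 33.1, 25.3, 15.7, 24.4 and 37.03 CPM in males. The groups did not overlap (−1.44 ± 0.44, adjusted p = 0.033), but the call was lost in 5 of 17 settings. Pdf, known as a peptide of clock neurons, was at 119.6 ± 26.9 and 111.8 ± 20.5 CPM (0.10 ± 0.26, adjusted p = 0.897). In early heads it was at 48.2 ± 3.36 CPM in F2 females and 172 ± 106.3 in F3 males, and the late minus early difference was 1.93 ± 0.37 (adjusted p = 0.000328).

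Some broadly used genes passed with differences under 2-fold. Srf, a transcription factor of actin and muscle genes, was at 44.6, 38.98, 47.5, 45.6 and 43.3 CPM in females and at 24.4, 29.8, 26.6, 26.7 and 30.6 CPM in males (0.67 ± 0.15, adjusted p = 0.00283). The SNARE gene Syx17, which acts in autophagosome fusion, was at 71.4 ± 6.55 and 47.6 ± 8.68 CPM, and the chaperonin subunit Cctgamma at 87.3 ± 6.13 and 64.4 ± 3.76, a call lost in 10 of 17 settings. The dynein light chain DLC-A was male-higher, at 352 ± 41.4 and 502 ± 44.6 CPM (−0.51 ± 0.13). Neither Syx17 nor DLC-A was called on either log2 TPM scale, and Syx17 was not called without D95 or D111. The other 3 muscle genes tested were not called in the 8-group fit, although the list summed to 907 to 1260 CPM in females and 665 to 815 in males, without overlap. With the 2 groups fitted alone the tropomyosin genes Tm1 (0.56, adjusted p = 0.00545) and Tm2 (0.28, adjusted p = 0.0174) were also called. In that fit 3 of the 4 muscle genes were female-higher, where 10% of all genes were. None of 15 cell cycle, 13 DNA repair, 3 germline and 3 hexamerin (fat body storage protein) genes was called, where 9.08% of all genes were. The 2 groups alone, with 22.5% of all genes called, gave 1 call each in the cell cycle, DNA repair and hexamerin lists.

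Over all called genes, the early comparison shared part of the calls in each direction and held others in the opposite one. Of the 358 female-higher genes 99 (27.7%) were female-higher in early heads and 93 (25.98%) male-higher, where 16.7% and 20.4% of all genes were. Of the 693 male-higher genes 223 (32.2%) were male-higher and 71 (10.2%) female-higher. The shared genes were 5.11% of the 1939 early female-higher and 9.45% of the 2359 early male-higher genes. The sex difference itself differed between late and early heads for 198 (55.3%) of the female-higher and 357 (51.5%) of the male-higher genes, against 24.9% of all genes (13.4% toward females, 11.5% toward males). The late values chose these genes and also enter that test, so these shares are a description. Muscle genes differed by sex in early heads in both directions. Tm1, a muscle tropomyosin, was at 3686 ± 1891 CPM in F2 females and 762 ± 327 in F3 males, against 869 ± 115.8 and 585 ± 54.7 in late heads. Of the 4 muscle genes 2 were female-higher in early heads (Tm1 2.27 ± 0.37, Zasp66 2.44 ± 0.48), where 16.7% of all genes were. Srf was male-higher (−0.49 ± 0.15), and Tm2 was not called (−0.19 ± 0.13). The part of muscle genes in the early comparison was not tested.

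Among genes with a symbol that were female-higher both times were Tra (early 1.86 ± 0.29), Dsx (1.29 ± 0.18), CCE-A4 (3.94 ± 0.89), SP128 (1.88 ± 0.65), Mrjpl2 (2.02 ± 0.72) and Syx17 (0.97 ± 0.16). Male-higher both times were, among others, CYP9AG7, CYP6CK11, CYP6CK8, CYP4AB14, SP137 (−3.48 ± 0.55), CPR48, Cox7a1 and Gr32. Opposite in early heads were, among others, Or140, Srf (−0.49 ± 0.15) and Cctgamma (−0.51 ± 0.13) among female-higher genes and CYP6AQ4, CYP4AB6 (0.84 ± 0.34) and SdhB among male-higher genes. Fru was at 0.49 ± 0.25 in early heads, without a call (adjusted p = 0.115), and its late minus early difference was not called either (0.29 ± 0.35, adjusted p = 0.574).

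**Figure D5:**
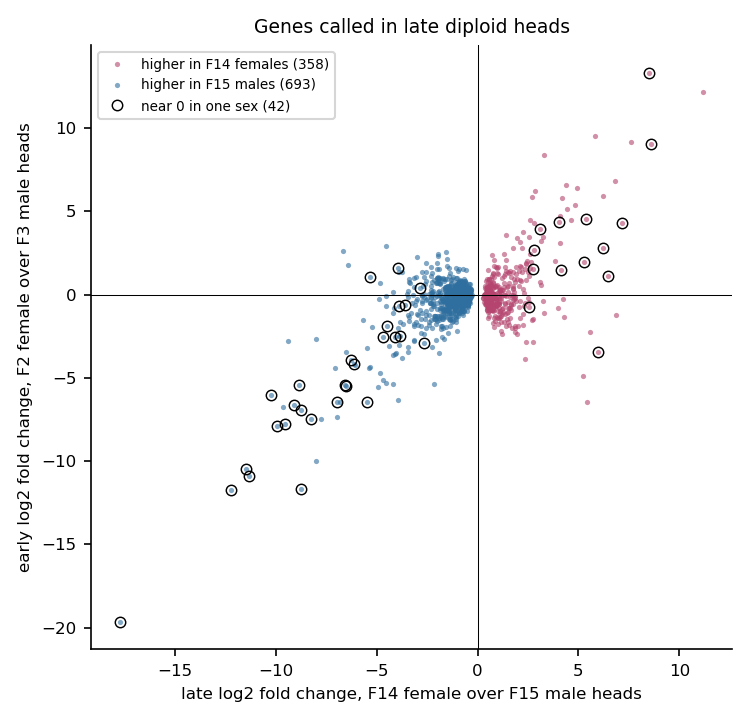
Log2 fold change, female over male, in early heads (vertical) against late heads (horizontal) for the 1051 genes called in late heads, with the 42 genes near 0 in 1 sex circled. Genes far from 0 on the horizontal axis mostly keep their sign, and the dense cloud near 0 lies on both sides of the horizontal line.

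The ploidy of either sex could also be varied, at the cost of shared libraries. With haploid males 9.73% of genes were called (3.44% female-higher, 6.3% male-higher), and with triploid females 33.3% (16.2% and 17.1%). Against the same 5 diploid females, late haploid males gave Tra 2.28 ± 0.29, Dsx 0.60 ± 0.18, CYP4AB14 −7.84 ± 0.42, CYP6AQ4 −3.29 ± 0.36, GstT2 −2.92 ± 0.48 and Or93 −3.97 ± 0.65. Named genes that were not called with haploid males included Fru (0.73 ± 0.25, adjusted p = 0.0526), Syx17 (0.13 ± 0.16) and DLC-A (−0.22 ± 0.13). So were Cctgamma, CCE-A8, SP128, Mrjpl2, GstD1, CPR18, Mrjpl8 and Y-e left without a call. Against the same 5 diploid males, late triploid females gave Tra 3.21 ± 0.30, CYP4AB14 −5.14 ± 0.37, CYP6AQ4 −5.81 ± 0.41, GstT2 −3.78 ± 0.49 and Or93 −5.30 ± 0.73. Dsx (0.15 ± 0.18, adjusted p = 0.553), Srf (−0.15 ± 0.15, adjusted p = 0.467) and Syx17 (0.19 ± 0.16, adjusted p = 0.376) did not pass with triploid females, and CPR48 was at 701 ± 405 CPM there (0.62 ± 0.69). Other male-higher genes that did not pass there included CYP4AB9 (71.5 ± 47.8 CPM, −0.77 ± 0.44), CPR18, CPR34, ACP, Y-e, SP110 and nAChRa12. On the female-higher side they included CCE-A4, CCE-A8, Or140, Cctgamma and LOC100121499. Among the genes named here, those called in the opposite direction with triploid females were SdhB (1.17 ± 0.18, adjusted p = 5.43e-06), Ndufb8 (0.68 ± 0.16, adjusted p = 0.00138), DLC-A (0.44 ± 0.13, adjusted p = 0.00872) and SP128 (−2.24 ± 0.73, adjusted p = 0.0169). These comparisons share libraries with the diploid one, so they are not independent of it.

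Abdomens of the same sexes, ploidy and generations differed far more: 81.9% of 11846 genes were called, 38.9% female-higher and 42.9% male-higher. The labels do not say whether heads and abdomens came from the same wasps. Of the 693 genes male-higher in heads 512 (73.9%) were male-higher in abdomens and 81 (11.7%) female-higher. Of the 358 female-higher genes 149 (41.6%) were female-higher and 138 (38.5%) male-higher there. One male abdomen library, D119, had 341 CPM of the opsin Lop1 against 0.42 to 16.2 in the other males, and 1171 CPM of CYP9AG7 against 0.11 to 25.3. Without it 500 (72.2%) of the male-higher and 151 (42.2%) of the female-higher genes kept the direction, and 23 rather than 25 of the 28 genes near 0 in female heads were male-higher. Of the 14 genes near 0 in male heads, 6 were female-higher and 2 male-higher in abdomens, where 38.9% and 42.9% of all genes were. Without D119 these were 6 and 3.

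The sex difference in heads differed from that in abdomens for 71.6% of genes tested (35.9% toward females in heads, 35.6% toward males). Tra was at 114.6 ± 7.03 CPM in female and 40.5 ± 6.30 in male abdomens, a smaller difference than in heads (heads minus abdomens 0.86 ± 0.21, log2, adjusted p = 0.00106). Dsx was reversed, at 176 ± 17.4 CPM in female and 397 ± 108.9 in male abdomens (−1.17 ± 0.15, adjusted p = 8.35e-07, heads minus abdomens 1.90 ± 0.22). Fru was at 77.2 ± 11.6 and 50.5 ± 15.4 CPM (0.61 ± 0.26, adjusted p = 0.034). Some male-higher detoxification genes were higher still in male abdomens. CYP6AQ4 was at 22.8 ± 8.66 CPM in female and 7510 ± 841 in male abdomens, CYP4AB14 at 0.12 ± 0.09 and 1667 ± 333, and GstT2 at 29.9 ± 3.70 and 2456 ± 576. LOC100119652 was at 0.06 ± 0.05 and 100.2 ± 26.1 CPM, and LOC100122102 at 488 ± 161 and 44.9 ± 36.5. In CYP9AG7 the head level was the higher one, at 242 ± 519 CPM in male abdomens, nearly all from D119. CYP9AG6 (0.93 ± 0.21), GstT3 (1.00 ± 0.28) and CYP6CK3 (adjusted p = 0.00487), male-higher in heads, were called female-higher in abdomens. CYP6CK11 was not called there (0.04 ± 0.40). CCE-A4 (−1.39 ± 0.44), CCE-A8 (−6.65 ± 0.66) and CCE-E7 (−5.74 ± 0.81), female-higher in heads, were male-higher in abdomens. Of 43 P450 genes tested in abdomens 36 were male-higher and 3 female-higher, where 42.9% and 38.9% of all genes were.

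Along the chromosomes, 158 of 687 placed male-higher genes (23%) had a neighbouring tested gene also called male-higher, and 31 of 357 placed female-higher genes (8.68%) had a female-higher neighbour. A neighbour on either side counted. These shares are thus not on the same footing as the shares of single genes called (5.98% male-higher and 3.09% female-higher). Male-higher calls were also the more frequent ones, so the neighbour shares and the runs are a description and do not compare the directions. Runs of 3 or more male-higher neighbours numbered 17, the longest of 5 genes, and a single run of 3 was female-higher. One run held GstT1, GstT2 and GstT3, another CYP4AB9 with 3 LOC genes, and another CYP6BD2. Long non-coding RNA genes made up 3.91% of the female-higher and 2.89% of the male-higher genes, against 3.89% of those tested.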

How the data were processed

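Per the submitters' processing notes, the upstream tools were STAR 2.7.11a (alignment) and RSEM 1.3.1 (quantification). Which genome build served is not given in the sources used here. RSEM expected counts were deposited by the authors for 14621 genes and TPM for 14613 genes in all libraries. Of the expected counts 17.8% were not whole, and all were rounded before testing. Symbols came from the RefSeq table of assembly Nvit_psr_1.1 (14621 of 14621 identifiers matched, 829 with a symbol other than LOC).

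In R 4.3.3, edgeR 4.0.16 fitted the 40 head libraries as 8 groups (TMM scaling, filterByExpr with minimum count 10 and total 15, robust quasi-likelihood F test), and calls were made where the p adjusted by Benjamini-Hochberg across the whole table was under 0.05. SE is the log2 fold change over the square root of F, and levels are TMM-scaled CPM. The late minus early contrast came from the same fit. Abdomens were fitted with the late diploid heads as 4 groups. Alternatives were DESeq2 1.42.0, RLE scaling, no filter, limma 3.58.1 on log2(TPM + 1) and log2(TPM + 0.1), other sets of groups and leaving out each library. Tested on simulated data for this comparison (11579 genes), the fit recovered 70 of 100 genes changed 2-fold and 93 of 100 changed 4-fold, with 3 false calls. The simulated counts were drawn with the spread estimated by the fit itself, and unchanged genes had the same mean in all groups. Changed genes were taken only from those at 1 CPM or more on average, so the recovery does not apply to scarcer genes.

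The comparison, the 22 gene lists (matched by symbol alone) and the naming rule were chosen with earlier results of these data known. Named were called genes without overlap and with at least 5 CPM in the higher sex (15 largest each way, at most 5 LOC genes), the 5 smallest p each way, up to 4 members of each list, called members of the enzyme and odorant receptor lists, markers, and Tra, Dsx and Fru. No sequence is shown. Within groups, all pairs of libraries differed by more than sampling noise (lowest chi-square per degree of freedom 39.4).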

Additional observations from a re-analysis of the deposited data

Results flagged for a closer look

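Of 72 named genes checked, 29 had a sex difference that itself differed between late and early heads (edgeR, adjusted p under 0.05), against 24.9% of all genes. Most were picked by their late values, which also enter that test, so this count is a description. Values here are log2, late minus early. Not counted here, Tm1 (−1.70, adjusted p = 0.0129) and Zasp66 (−1.79, adjusted p = 0.0392) also differed, toward males. More toward males in late heads were LOC100119652 (−4.23), CYP4AB14 (−5.33), CYP4AB9 (−4.62), CYP6AQ4 (−4.36), CYP4AB6 (−2.49), CYP6AQ9 (−2.12), CYP9AG6 (−2.10) and CYP4AB8 (−1.59) among P450 and LOC genes. So were GstT1 (−2.48), GstT2 (−2.22), GstD1 (−1.94), GST-mic1 (−1.62), CCE-A9 (−2.72) and CCE-A8 (−2.18). Others were Or93 (−4.33), CPR48 (−3.09), CPR34 (−2.03), Y-e (−2.80), C1q-VP (−1.59), SdhB (−1.44), Ndufb8 (−0.77) and SP110 (−0.63). More toward females in late heads were SP7 (7.79), LOC100121499 (5.34), LOC100114086 (3.31), Or140 (3.26), Pdf (1.93), Srf (1.16) and Cctgamma (0.95).

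Of 9 genes compared with abdomens, 6 had a sex difference that differed between the tissues, as did 71.6% of all genes tested. Heads minus abdomens, in log2, it was 0.86 for Tra, 1.90 for Dsx, 7.70 for LOC100122102, 5.73 for CYP4AB14, 4.91 for CYP6AQ4 and 3.03 for GstT2.

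A single library stood apart from the other 4 of its group, relative to their spread, in 18 of 144 checks (Dixon critical value 0.71 for 5 samples). A gene with counts in 1 library of a group is always flagged, as were CYP9AG7, CYP6CK11, LOC100379126, Or279, LOC116416192 and Cox7a1. The rate of about 1 in 20 groups flagged by chance does not hold near 0, so the 18 are a description. In males the highest library was D113 for CPR48 (1328 CPM), Mrjpl8 (23.2), LOC100379126 (0.13) and Or279 (0.0646), D114 for LOC103315799 (3117) and CYP6CK3 (15.4), D115 for GstT3 (5.12), Gr32 (3.54) and Ndufb8 (208), and D112 for SP110 (86.8) and LOC116416192 (0.0798). D113 was the lowest for LOC100115602 (135). In females the highest was D95 for CYP9AG7 (0.16) and LOC100114526 (185), D92 for CYP6CK8 (1.85) and Cox7a1 (0.26), D91 for CYP6CK11 (0.17) and D93 for CYP6AS28P (0.42). D113 and D93 were also the deepest libraries of their groups.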

How the results depend on the processing

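The count of genes called between late diploid female and male heads was 1051. It was 2372 with the 2 groups fitted alone and 1949 without the triploid groups, where 356 of the 358 female-higher and 692 of the 693 male-higher calls remained; the cause was not tested. It was 866 to 1364 under the other tools, scalings, filters and TPM settings, and 769 to 963 without each library. Without each library the count ran from 3339 to 4284 for early heads, 2393 to 2953 for late minus early, 9502 to 9769 for abdomens and 8265 to 8602 for heads minus abdomens. Under the other settings these stayed within 1.5 times the values given. No named gene changed sign with a call. Of the 42 genes near 0 in 1 sex, all stayed called in every setting except 1 without D113. No paired analysis was possible because the labels give the sexes no shared replicate numbers.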
